A study of Caenorhabditis elegans with 8 samples.

Results

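The piRNA landscape of wild-type worms is described here from the 2 WT libraries of a series of 8 small RNA libraries of Caenorhabditis elegans. All 9742 piRNAs of the deposited table are included, and the levels are those of the columns of the WT libraries alone. WT replicate 1 and WT replicate 2 were made from untreated whole worms of the wild-type genotype, and their stage, sex and number are not stated in the labels. The question of the series is how casein kinase II acts on piRNA production, and its other libraries, of prde-1 and prg-1 worms and of kin-3 worms grown with auxin, were not used here. Levels are in RPM, reads per 1000000 of a library total. Which reads that total covers is not stated, and PIR-1 also makes small RNAs other than piRNAs fit for cloning, so an RPM is a share of a mixed pool. The total was 1342764 reads in WT replicate 1 and 913321 reads in WT replicate 2, so that 1 read was worth 0.745 and 1.09 RPM. Whole worms hold germline and soma together, and fewer germ cells and less piRNA per germ cell cannot be told apart in such libraries.

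The piRNAs of C. elegans, also called 21U-RNAs, are small RNAs of 21 nt with a 5′ uridine that are carried by PRG-1, the Piwi protein of the worm germline, and that scan germline transcripts for foreign sequence. Most are transcribed by RNA polymerase II from very many separate short genes on chromosome IV, each with its own upstream motif, and the precursors are then capped, trimmed and loaded. An upstream transcription complex that includes PRDE-1 and TOFU-4 acts at these genes. Whether listed loci that overlap have separate start sites or motifs was not analysed here.

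Listed piRNAs made up a little over 1% of the read total of each library. They summed to 13327 RPM in WT replicate 1 (17895 reads, 95% Poisson interval 13132 to 13524 RPM) and to 13037 RPM in WT replicate 2 (11907 reads, 12804 to 13273 RPM), a mean of 13182 ± 205 RPM (SD, n = 2). A read was found for 3818 piRNAs in WT replicate 1 and for 3220 in WT replicate 2. Thinned to the total of WT replicate 2, WT replicate 1 was expected to show 3207 piRNAs, so that the gap in numbers went with depth. In all, 2251 piRNAs had reads in both libraries, 1567 in WT replicate 1 alone, 969 in WT replicate 2 alone and 4955 in neither. Of the piRNAs seen in a single library, 1082 of the 1567 and 759 of the 969 rested on 1 read, and none on more than 8. A piRNA without a read in either library is bounded at 1.33 RPM, 3 reads of the pooled total. Such loci were not detectable at this depth, which does not show that they are silent. Intervals and bounds of this kind cover counting error only.

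The levels of the loci were very unequal. Over all listed loci the 75th percentile was 0.920 RPM, the 90th 2.78 RPM and the 99th 19.8 RPM. Only 258 loci averaged 10 RPM or more, and these held 45.4% of the summed level. Of the loci, 328 were needed for 50% of the level and 2347 for 90%. To keep the choice of the top loci apart from their value, they were ranked in WT replicate 1 and read in WT replicate 2. The 10 highest of WT replicate 1 held 7.17% of the piRNA reads of WT replicate 2 (95% exact binomial interval 6.72 to 7.65%), the 100 highest held 27.6% (26.8 to 28.4%) and the 1000 highest 68.5% (67.7 to 69.4%). Ranked the other way round, the 100 highest of WT replicate 2 held 28.8% of the reads of WT replicate 1. The lists of 100 shared 80 loci.

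**Figure D1:**
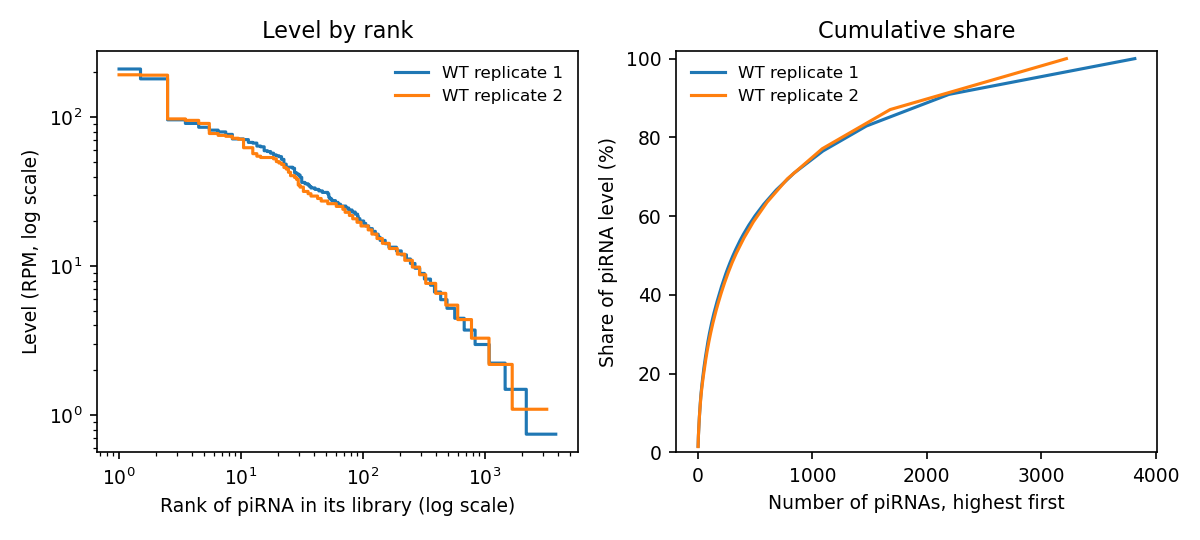
Level of each piRNA with a read against its rank (left, both axes logarithmic) and cumulative share of the piRNA level with the highest piRNAs first (right), for WT replicate 1 and WT replicate 2. The curves of the libraries lie close together from the leading pair near 200 RPM down to the steps of single reads at 0.745 and 1.09 RPM, where they end at 3818 and 3220 piRNAs.

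The highest piRNAs were a pair of loci well above all others. 21ur-6307 (chromosome IV 14577635 to 14577655, minus strand, outside coding genes) stood at 211 RPM in WT replicate 1 and 193 RPM in WT replicate 2, on 283 and 176 reads. 21ur-5695 (chromosome IV 14310785 to 14310805), in an intron of Y64G10A.7 and on the strand opposite to that gene, reached 181 and 192 RPM. Their pooled counting intervals, 185 to 223 RPM and 168 to 204 RPM, overlap, and the order of these loci is not settled. The next locus, 21ur-2934 (chromosome IV 13948777 to 13948797, in an intron of Y37A1A.4 and antisense to it), had 96.1 and 90.9 RPM. Its interval of 81.7 to 108 RPM lies apart from both of theirs.

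The ranks below ran on without a gap. 21ur-2822 had 90.9 RPM in WT replicate 1 and 95.3 RPM in WT replicate 2, 21ur-7923 had 81.9 and 97.4 RPM, and 21ur-5410 had 85.6 and 74.5 RPM. All 3 lie outside coding genes, the first and the last on the minus strand and 21ur-7923 on the plus strand. 21ur-2741, in an intron of the potassium channel gene egl-23 on its sense strand, had 70.7 and 71.2 RPM. 21ur-7986 had 63.3 and 77.7 RPM, 21ur-13680 had 67.8 and 72.3 RPM, and 21ur-5714 had 59.6 and 75.5 RPM. Of the 10, 21ur-13680 alone overlaps a coding exon, that of nhr-229, a nuclear hormone receptor gene, to which it is antisense. The counting intervals of these last 4 overlap one another, from 55.9 to 82.8 RPM in all. All 10 lie on chromosome IV from 13 Mb. 21ur-1 (chromosome IV 16687107 to 16687127), the first of the numbered 21U-RNAs, was listed without a read in both libraries, and 21ux-1 was not analysed here.

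No piRNA with enough reads for the test was called as different between the 2 libraries. Of the 647 piRNAs with at least 10 reads over both libraries, none differed between WT replicate 1 and WT replicate 2 by an exact binomial test of the reads (two-sided, Benjamini-Hochberg over the 647, lowest adjusted p = 0.819, 0% called). Without adjustment 31 had p under 0.05, which is 4.79% of those tested. A chi-square test over the same piRNAs gave 687 on 647 degrees of freedom (p = 0.132). The summed reads relative to the totals also did not pass the threshold (exact binomial p = 0.0631, ratio 1.02 in WT replicate 1 over WT replicate 2). Such a test compares these libraries and nothing else. The other listed loci had fewer than 10 reads, and at low read numbers the test can miss large differences. For cel-piR-15530, 3 reads in WT replicate 1 against 11 in WT replicate 2 gave adjusted p = 0.819 (exact binomial test). No difference beyond sampling noise was thus detected, which does not show that the libraries are equal. The labels do not say that they came from separate cultures. The spread between them may be technical, and an SD over them is not shown to measure more than counting. For this reason most values are given for each library, and percentiles, bin shares and levels given as 1 value are means of both.

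Among the loci of 10 RPM or more, 203 of 258 had a ratio of WT replicate 1 to WT replicate 2 within 1.5-fold either way, and 9 lay beyond 2-fold. The extremes were 21ur-4960, with a ratio of 2.72, and 21ur-3299, with 0.317. The lowest unadjusted p belonged to 21ur-5083 (chromosome IV 5980165 to 5980185, in an intron of the ankyrin gene unc-44, antisense to it and overlapping an exon of the noncoding RNA gene B0350.77). It had 71.5 RPM in WT replicate 1 and 40.5 RPM in WT replicate 2 (ratio 1.76, exact binomial p = 0.00262, adjusted p = 0.819), a gap that does not pass the adjustment. Next came 21ur-251, with 76.7 and 44.9 RPM, and 21ur-1581, with 35.7 and 15.3 RPM (exact binomial test, adjusted p = 0.819 each). Across the 2307 piRNAs with a mean of at least 1 RPM, log2(RPM + 1) of the libraries had Pearson's r = 0.634 and Spearman's rho = 0.485. These describe loci that share the same libraries, and among the 258 loci of at least 10 RPM Pearson's r was 0.851, while without any filter it was 0.779, so the value depends on which loci are taken in. These and other piRNAs named outside the 10 highest were partly chosen after their values were seen.

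**Figure D2:**
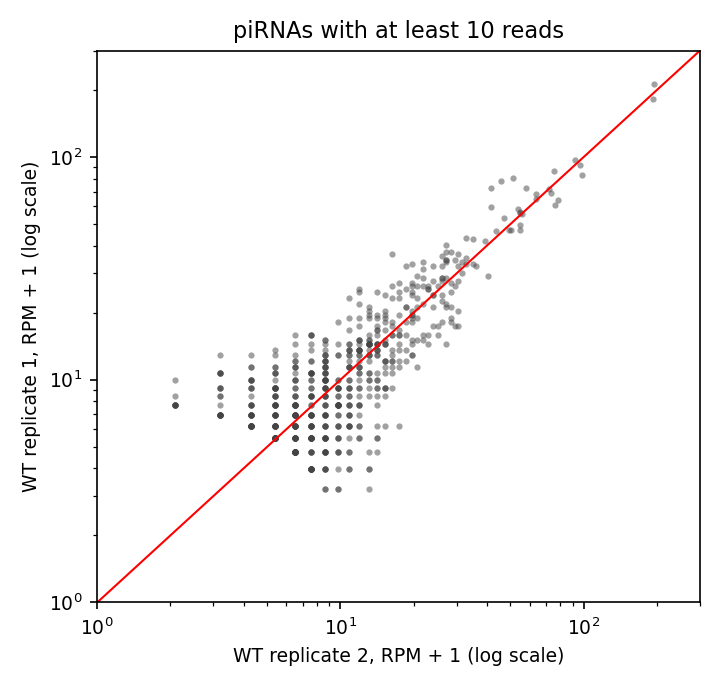
Level of the 647 piRNAs with at least 10 reads over both libraries, as RPM + 1 on logarithmic axes, WT replicate 1 against WT replicate 2, with the line of equal levels. Points scatter widely below 10 RPM, where 1 read is a large part of a level, and close up towards the leading pair, 21ur-6307 and 21ur-5695, near 200 RPM.

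Chromosome IV carried nearly the whole level, and most of it lay in a large cluster at the right of the chromosome. The region from 13 Mb held 8017 of the 9741 loci with a single position (82.3%), and 92.0% of the piRNA reads of WT replicate 1 (95% exact binomial interval 91.6 to 92.4%) and 91.8% of those of WT replicate 2 (91.3 to 92.3%). The smaller cluster at 4.5 to 7 Mb held 1512 loci (15.5%) and 7.21% (6.83 to 7.60%) and 7.33% (6.87 to 7.81%) of the reads. The loci elsewhere on chromosome IV held 0.190% and 0.134%.

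Medians of the mean over both libraries were 0.372 RPM in the large and 0 RPM in the smaller cluster. A level of 0.372 RPM is that of 1 read in WT replicate 1 and none in WT replicate 2. Of the plus-strand and minus-strand loci of the large cluster, 41.3% and 40.4% had a read in WT replicate 1. In WT replicate 2 it was 34.9% of each. The median within each library alone was thus 0 RPM, as in the smaller cluster. On average, loci of the large cluster were higher. They averaged 1.53 RPM per locus in WT replicate 1 and 1.49 RPM in WT replicate 2, against 0.635 and 0.632 RPM in the smaller cluster, 2.41-fold and 2.36-fold. A read in either library was found for 50.9% of the loci of the large cluster and 43.3% of those of the smaller one. At 10 RPM or more stood 247 loci of the large cluster (3.08%) and 8 of the smaller one (0.529%). Of the 100 highest loci, 99 lay in the large cluster, and the exception was 21ur-5083, at 56.0 RPM the highest of the smaller cluster. After it in that cluster came 21ur-8392 (chromosome IV 4833476 to 4833496, minus strand, in an intron of tat-2), with 23.1 RPM in WT replicate 1 and 14.2 RPM in WT replicate 2. Loci are not replicates of each other, and with libraries of 1 group these contrasts of place are descriptions without a test.

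Summed per megabase, the level along the large cluster was highest between 14 and 15 Mb. Between 13 and 14 Mb, 775 loci summed to 1265 RPM in WT replicate 1 and 1231 RPM in WT replicate 2. Stretches of 214 and 123 kb in this window held no listed locus. Between 14 and 15 Mb, 2494 loci summed to 4348 and 4346 RPM. This window holds the highest pair, 21ur-6307 and 21ur-5695, at means of 202 and 186 RPM. From 15 to 16 Mb, 2472 loci summed to 3469 and 3273 RPM. The megabases at 14 and 15 Mb thus held nearly the same number of loci but differed in level by more than either differed between the libraries. From 16 to 17 Mb, 1951 loci summed to 2720 and 2679 RPM, and the 325 loci beyond 17 Mb to 453 and 445 RPM. Per locus the level was 1.74 RPM in both libraries at 14 to 15 Mb, 1.63 and 1.59 RPM at 13 to 14 Mb, and between 1.32 and 1.40 RPM in the other 3 windows.

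The listing itself was uneven along the chromosome. The table holds 63.4% as many piRNAs as the annotation has piRNA genes (9742 against 15363). In the 5 windows of the large cluster the number of listed loci was 64.7 to 71.7% of the annotated number, against 48.0 to 56.2% in the 3 windows from 4 to 7 Mb. How the table was compiled is not given in the sources used here, and levels per locus are levels per listed locus.

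**Figure D3:**
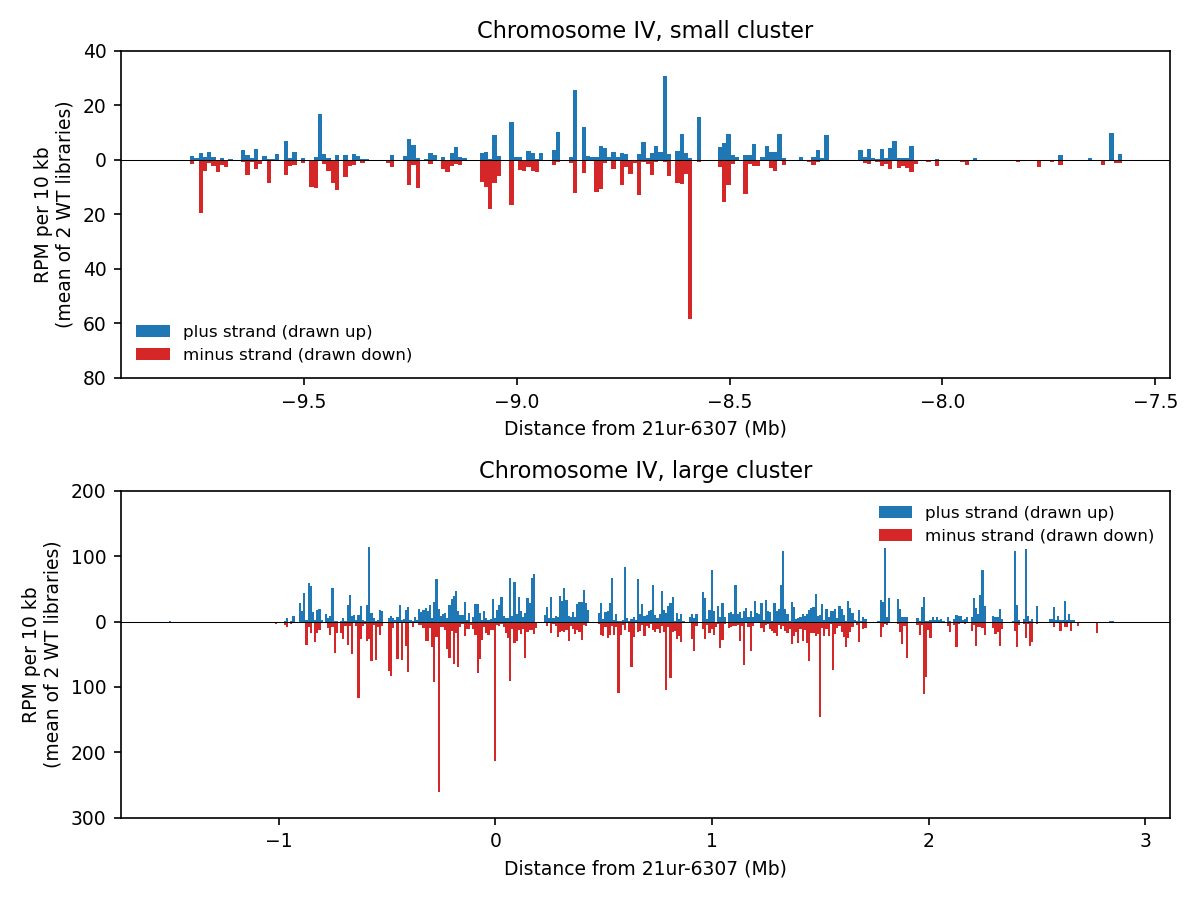
Summed level per 10 kb along the smaller (top) and the large cluster (bottom) of chromosome IV, as RPM averaged over the 2 WT libraries, against the distance from 21ur-6307 in Mb; plus-strand loci are drawn up and minus-strand loci down, and the vertical scales of the panels differ. The tallest bars of the large cluster, at 21ur-5695 and 21ur-6307, point down to the minus strand, and the tallest of the smaller cluster is at 21ur-5083.

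Both strands carried piRNAs in nearly equal number, with slightly less of the level on the plus strand. Chromosome IV had 4733 plus-strand and 4899 minus-strand loci. The plus strand held 45.9% of the chromosome IV reads in WT replicate 1 (95% exact binomial interval 45.1 to 46.6%) and 46.1% in WT replicate 2 (45.1 to 47.0%). The share of loci with a read was 39.5% on the plus and 39.3% on the minus strand in WT replicate 1, and 33.1% and 33.3% in WT replicate 2. Loci of 10 RPM or more numbered 116 on the plus and 139 on the minus strand. Of the 10 highest loci, 4 were on the plus and 6 on the minus strand, and without these 10 the plus share was 47.3% and 47.4%.

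Locally the strands were far less even. In 45 windows of 100 kb with at least 50 RPM in WT replicate 1, the plus strand held from 17.6 to 86.5% of the level in that library and from 13.6 to 79.8% in WT replicate 2. The lowest share in WT replicate 1 was that of 4.8 to 4.9 Mb, on 13 plus-strand and 61 minus-strand reads, and without its highest locus, 21ur-8392, the plus share there was 30.2% in WT replicate 1 and 37.5% in WT replicate 2. In 40 of the 45 windows both libraries lay on the same side of 50%. At 16.3 to 16.4 Mb the plus strand held 86.5% in WT replicate 1 and 79.8% in WT replicate 2, on 88 plus-strand against 42 minus-strand loci. Without its highest locus, 21ur-1632, it still held 83.5% and 75.4%. At 13.6 to 13.7 Mb the plus share was 80.7% and 78.2%, although 81 loci were on the plus and 67 on the minus strand. Without the highest locus, 21ur-500, it was 74.6% and 73.5%. At 14.0 to 14.1 Mb the plus share was 21.1% and 13.6% (87 plus-strand and 117 minus-strand loci). Without 21ur-5714 it was 24.9% and 17.0% there. At 16.5 to 16.6 Mb the plus share was 23.9% and 20.2% (83 and 154). Without 21ur-2822 it was 32.4% and 27.8%, and 35.0% of the loci there were on the plus strand. In the window that holds 21ur-6307, 14.5 to 14.6 Mb, the plus share of 23.9% and 26.2% moved to 39.6% and 43.3% without that locus, so a single locus made much of that window's imbalance.

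Neighbouring loci were often on the same strand. Ordered by their 5′ ends, 5961 of the 9631 neighbours of chromosome IV (61.9%) shared a strand, and 4658 of the 8258 neighbours more than 20 bases apart (56.4%) did. The median distance between neighbouring 5′ ends was 272 bases, with quartiles of 126 and 552 bases. It was 241 bases in the large cluster and 612 bases in the smaller one. Neighbours more than 20 bases apart had similar medians in every arrangement, at 314 bases for a plus-strand pair, 322 for a minus-strand pair, 348 for plus followed by minus and 343 for minus followed by plus. Their 5th percentiles were 88, 93, 58 and 107 bases, so that the closest spacings were least common where the loci point away from each other (minus followed by plus).

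The large cluster was broken by stretches without listed loci. The widest lay near its left boundary, where listed loci were sparse. They were 214 kb between 21ur-10402 and 21ur-8623 (chromosome IV 13148395 to 13362168) and 123 kb between 21ur-15591 and 21ur-6256 (13420986 to 13543947). Other gaps there were 73.6 and 58.8 kb, so these stretches depend on where the boundary was set. Between 14 and 17 Mb, the widest were 45.9 kb between 21ur-6023 and 21ur-6781 (15005515 to 15051383) and 37.3 kb between 21ur-14078 and 21ur-5656 (14764494 to 14801748).

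At the shortest distances the loci formed staggered groups. On chromosome IV, 1305 neighbours on the same strand had 5′ ends within 20 bases of each other and thus overlapped. Of these, 604 were offset by 1 base, 494 by 3 and 119 by 4, together 93.3%. An offset of 2 was seen 50 times, and all offsets of 7 bases or more together made up 6 pairs. Plus and minus strands showed the same order, with 287, 21, 233 and 60 pairs at offsets of 1 to 4 bases on the plus strand and 317, 29, 261 and 59 on the minus strand. Opposite-strand neighbours within 20 bases were rare, with at most 9 at any distance. Chained together, the overlapping loci made 1148 groups of 2 to 6 loci, 1018 of them pairs, and held 2453 loci.

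**Figure D4:**
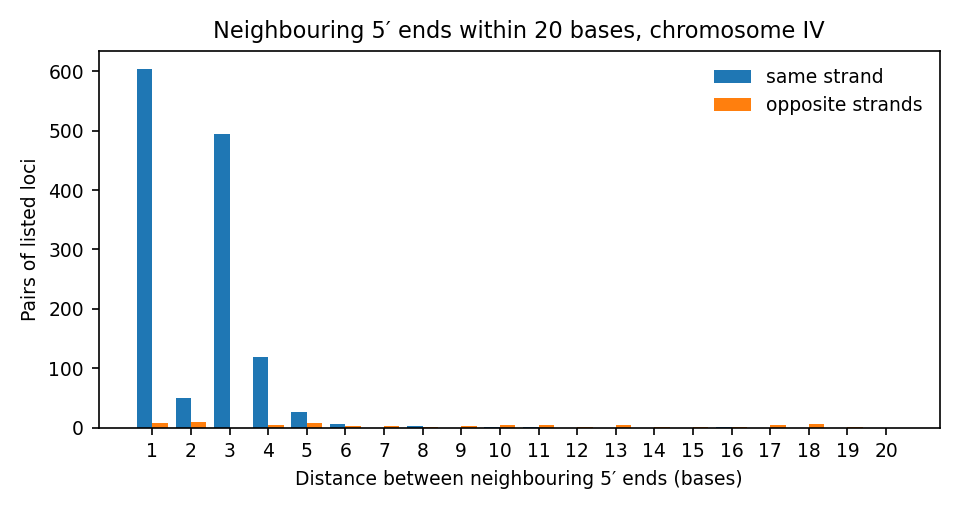
Number of neighbouring listed loci of chromosome IV by the distance between their 5′ ends in bases, for loci on the same strand and on opposite strands. Same-strand pairs peak at 1 base (604) and 3 bases (494) with few at 2 bases (50), and opposite-strand pairs number at most 9 at every distance.

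In most staggered groups with enough reads, 1 member was listed with nearly all of them, the same one in both libraries. How reads were assigned among overlapping loci is not stated, and that assignment can set how the reads of a group are divided. Of the 56 groups with at least 20 reads in WT replicate 1, all 56 had the same highest member in WT replicate 2. That member, chosen in WT replicate 1, held at least 90% of the group's reads in 50 groups in WT replicate 1 and in 50 groups in WT replicate 2. It was the most upstream of its group in 25 cases, the most downstream in 24 and in between in 7. In the group of 21ur-3502, 4 loci begin within 6 bases, and 21ur-3502 had 67.0 RPM in WT replicate 1 and 62.4 RPM in WT replicate 2 while the other members had no read. Groups with shared output were the exception. 21ur-832 and 21ur-4338, offset by 4 bases, had 18.6 and 11.9 RPM in WT replicate 1 and 14.2 and 8.76 RPM in WT replicate 2. 21ur-3562 and 21ur-4805, offset by 3 bases, had 13.4 and 7.45 RPM in WT replicate 1 and 21.9 and 7.66 RPM in WT replicate 2. Among the 10 highest loci, 21ur-2934 had a staggered partner with sizeable output, 21ur-7579, at 14.9 and 17.5 RPM.

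Staggered groups had more output than loci that stand alone. A group averaged 3.19 RPM in WT replicate 1 and 3.06 RPM in WT replicate 2, against 1.34 and 1.31 RPM for each of the 7179 loci without a same-strand overlap, 2.39-fold and 2.33-fold. A read was found for 74.0% of the groups and 50.3% of the single loci. Per locus the gap was small, 1.46 RPM in groups and 1.32 RPM alone. The member that led its group in the other library averaged 2.78 RPM in WT replicate 1 and 2.68 RPM in WT replicate 2. Because the basis of the listing is not given, whether abundant piRNAs were more often listed with shifted ends was not tested.

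Most abundant piRNAs had neighbours of far lower output. Of the 3659 neighbours with 5′ ends within 200 bases, 124 had a higher member with at least 20 reads in WT replicate 1, and in 111 of these (89.5%) that member had at least 10 times the reads of the other, with 0 reads counted as 1. In 60 of the 111 pairs the loci overlap, and without overlapping pairs the count was 51 of 61 (83.6%). In WT replicate 2, which did not enter the choice, 98 of the 111 again reached a ratio of 10, none turned round and the lowest ratio was 3.33. These 98 pairs became 43 without overlapping pairs and 58 when pairs were chosen in WT replicate 2. Among neighbours farther apart, up to 1000 bases, the share was 128 of 157 (81.5%), so unequal output was not particular to close neighbours. Most listed loci had few or no reads. Of all 9742 listed loci, 4955 had no read in either library. The lower locus had none in 64 of the 111 pairs, which is not far from that share and no result about these pairs.

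The steepest contrasts involved several of the highest loci. 21ur-2822 had 122 reads in WT replicate 1 and 87 in WT replicate 2, while 21ur-14950, on the opposite strand with a 5′ end 6 bases away, had none in either. 21ur-5410 had 115 and 68 reads, while 21ur-12613 (offset by 2 bases) had none and 21ur-6041 (offset by 1 base) had 0 and 1. 21ur-7923 had 110 and 89 reads and 21ur-11725, on the opposite strand with a 5′ end 1 base away, had none. With no read in the lower locus, the lower bound of the ratio from counting (95% exact) was 32.6 and 23.1 for the pair of 21ur-2822 and 29.3 and 23.6 for that of 21ur-7923.

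Other steep pairs did not overlap. 21ur-1088 and 21ur-6153, with 5′ ends 158 bases apart on opposite strands, had 96 and 0 reads in WT replicate 1 and 52 and 1 in WT replicate 2. 21ur-908 and 21ur-2284, 114 bases apart on the minus strand, had 86 and 0 reads in WT replicate 1 and 57 and 0 in WT replicate 2. The remaining pairs of the 8 steepest were staggered partners, 21ur-13680 with 21ur-7807 (91 and 1 reads in WT replicate 1, 66 and 0 in WT replicate 2) and 21ur-3502 with 21ur-10835 (90 and 0, then 57 and 0). Close neighbours of near-equal output were few. Only 3 of the 124 pairs had a ratio under 2 in WT replicate 1, among them 21ur-1786 and 21ur-11485, 74 bases apart on the plus strand, with 27.6 and 23.1 RPM in WT replicate 1 and 25.2 and 23.0 RPM in WT replicate 2.

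Crowding went with little difference in output. In the large cluster, loci with no other 5′ end within 500 bases averaged 1.41 RPM in WT replicate 1 and 1.38 RPM in WT replicate 2, and loci with 4 to 5 such neighbours averaged 1.51 and 1.47 RPM. Over all 6 classes of crowding the mean level ran from 1.40 to 1.62 RPM without a steady order. A read was found for 51.1% of the 440 isolated loci, 51.2% of the 2243 with 4 to 5 neighbours and 46.8% of the 804 with 6 or more. The levels of consecutive loci showed weak correlations at every distance. Spearman's rho was -0.06 for 1270 neighbours within 20 bases, 0.03 for 2900 neighbours over 100 and up to 300 bases apart and -0.01 for 2723 neighbours over 300 and up to 1000 bases apart. It was -0.13 for 470 neighbours beyond that and up to 5000 bases apart. These are correlations across loci of the same libraries, at read numbers so low that no relation is read from them.

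Hot spots appeared when the level was summed over bins of 10 kb, and most of the 10 highest were led by 1 locus. Of the 608 bins of chromosome IV with a listed locus, the 10 highest held 12.2% of the chromosome's level in WT replicate 1 and 12.3% in WT replicate 2. All 10 lay from 13 Mb, and 8 bins were among the 10 highest of both libraries. In 8 of the 10 a single locus held over 50% of the bin, though in 3 of these the share was 50.5 to 51.5%. Of the next 10 bins, 2 had such a locus. The highest bin, at 14310001 to 14320000, had 25 loci and 290.4 RPM in WT replicate 1 and 268 RPM in WT replicate 2, of which 21ur-5695 held 66.7%. It also holds 21ur-251, whose 5′ end is 506 bases from that of 21ur-5695 on the same strand, and together they gave 258 and 236.5 RPM. The next bin, at 14570001 to 14580000, had 231 and 207 RPM, and 21ur-6307 held 92.2% of it, while its next locus averaged 6.86 RPM. Both bins thus rest on 1 or 2 loci of the same strand.

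Broader hot spots were also seen. The bin of 21ur-1122, at 14640001 to 14650000, had 38 loci and 153 and 162 RPM, with 32.4% in its highest locus. The bin of 21ur-5101, at 14290001 to 14300000, had 29 loci and 118 and 126 RPM, with 36.2% in its highest locus. The other leading loci of the 10 highest bins were 21ur-5410, 21ur-2822, 21ur-2741, 21ur-13680, 21ur-2934 and 21ur-7923, with 50.5 to 73.9% of their bins. The 13th highest bin, at 15380001 to 15390000, reached 118 and 111 RPM from 37 loci with only 18.2% in its highest, 21ur-4052. The 10 highest bins held 308 loci, of which 126 had no read in either library. Of all 9742 listed loci, 4955 had none. The bins were chosen for their level, so these counts are a description and no result about hot spots.

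**Figure D5:**
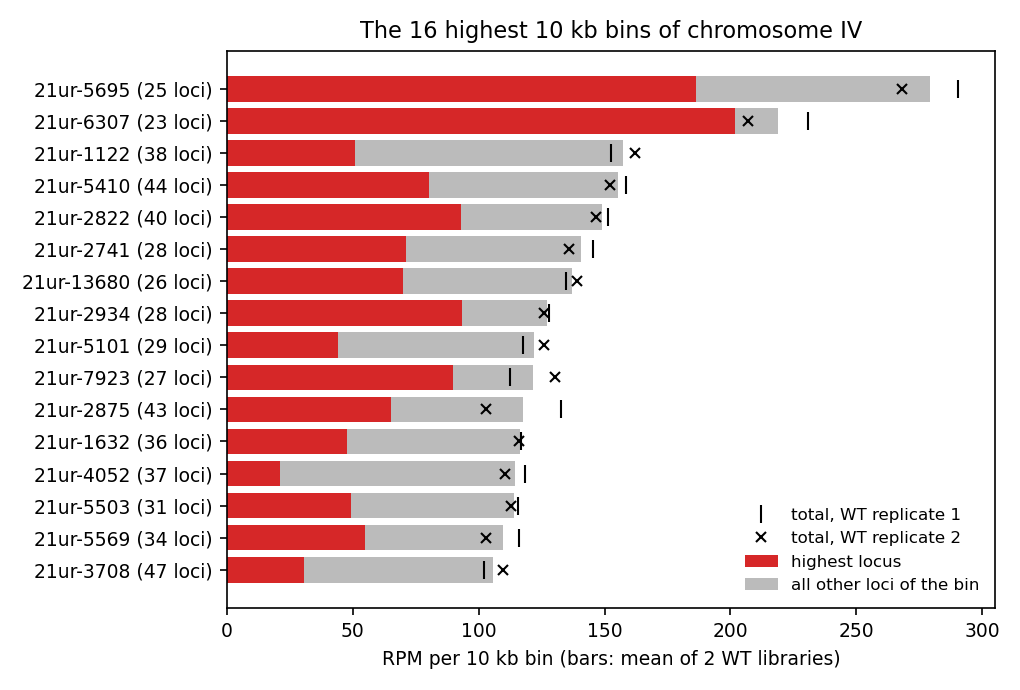
The 16 highest 10 kb bins of chromosome IV, named by their highest locus, with the number of listed loci in brackets; bars give RPM averaged over the 2 WT libraries, split into the highest locus and all other loci, and ticks and crosses give the total of WT replicate 1 and WT replicate 2. 21ur-6307 makes up 92.2% of its bin, and 21ur-4052 makes up 18.2% of its bin.

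The number of loci in a bin went with its level, but within the large cluster bins with many loci still differed widely in level. Across its 346 bins Spearman's rho between the number of listed loci and the mean level was 0.741, as a description over bins of the same libraries. The 221 bins there with 20 or more loci ranged from 5.17 to 279 RPM around a median of 38.4 RPM. The densest bin, at 16830001 to 16840000, had 51 loci and 55.1 RPM in WT replicate 1 and 33.9 RPM in WT replicate 2, and ranked 67th by level in WT replicate 1 and 140th in WT replicate 2. The lowest of the 221, at 16600001 to 16610000, had 29 loci of which 9 had a read, and 5.96 and 4.38 RPM in all.

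Coding introns and the space between coding genes carried piRNAs at like levels, while loci in coding exons were few. On chromosome IV, 6035 loci (62.7%) lay outside coding genes and held 62.0% and 62.8% of the level, at 1.36 and 1.35 RPM per locus in WT replicate 1 and WT replicate 2. The 3253 loci in coding introns (33.8%) held 35.6% and 34.6%, at 1.45 and 1.38 RPM per locus. The 344 loci that overlap a coding exon (3.57%) held 2.41% and 2.55%, at 0.929 and 0.958 RPM per locus. A read was found for 40.4% of them, against 50.3% in introns. The 149 antisense exon loci averaged 1.25 and 1.34 RPM and the 194 sense ones 0.687 and 0.672 RPM. Without the highest locus of each class these means were 0.829 and 0.588 RPM. From 13 Mb, loci averaged 1.21 RPM in exons, 1.64 RPM in introns and 1.46 RPM outside coding genes. Within introns, 1681 loci antisense to the host gene held 19.8% and 19.0% of the level and 1568 sense loci held 15.8% and 15.6%. Without its highest locus, the antisense class averaged 1.40 RPM per locus and the sense class 1.27 RPM, so the gap between them was small.

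A few genes hosted many piRNAs. Among 446 genes that were the only host of a locus, Y64G10A.7 had the highest level, at 471 RPM in WT replicate 1 and 461 RPM in WT replicate 2 from 78 loci, 21ur-5695 among them. The potassium channel gene egl-23 followed with 241 and 209 RPM from 74 loci, and Y37A1A.4 with 197 and 188 RPM from 82 loci. Other genes had many loci and no dominant one. jac-1, which encodes a p120 catenin, hosted the most loci and had 124 and 130.3 RPM, with 10.7% in its highest locus, 21ur-5438, and a read at 50 of its loci. In Y64G10A.7 the 44 antisense loci averaged 377 RPM in sum and the 34 sense loci 89.6 RPM. Most of that antisense sum came from 21ur-5695, at a mean of 186 RPM, and 21ur-251, at 60.8 RPM. In jac-1 the 28 antisense loci summed to 28.2 RPM and the 75 sense loci to 99.1 RPM. These genes were picked for their levels and are given as a description.

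Outside chromosome IV the table lists 109 loci, of which 30 had a read. Together they held 0.643% of the reads in WT replicate 1 (95% exact binomial interval 0.531 to 0.771%) and 0.697% in WT replicate 2 (0.556 to 0.863%). The highest was 21ur-10492 (chromosome II 13247294 to 13247314, opposite in strand to an F15D4.5 exon), with 19.4 RPM in WT replicate 1 and 14.2 RPM in WT replicate 2. It was followed by 21ur-9719 (X 9072394 to 9072414, overlapping a linc-22 exon, a long noncoding RNA), with 10.4 and 16.4 RPM, and 21ur-10824 (III 2295350 to 2295370, sense to an exon of Y54F10BM.9), with 16 and 11 reads. 21ur-10895 had 11.9 and 5.47 RPM and 21ur-12557, antisense to an exon of F40D4.13, had 8.19 and 7.66 RPM, both on chromosome V. These 5 loci rest on 5 to 26 reads per library, and their order among themselves is not settled at this depth.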

How the data were processed

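Small RNAs of whole worms were cloned by adaptor ligation after treatment with the polyphosphatase PIR-1 and were sequenced, per the labels' protocols. The submitters' processing notes name cutadapt 1.18 and Bowtie 1.2.1.1. Their settings, the build and the treatment of multiply matching reads were not given in the sources used here, so reads of near-identical or overlapping piRNAs could be divided between loci in ways not known here. The authors deposited RPM values, 1 column per library. All positive values were whole multiples of their library's lowest value (tolerance 0.01 reads, 100% whole), and the multiples were used as read counts. The 6 columns of other genotypes were not used. The row with 2 positions had no read and was left out of positions.

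Coordinates and strand of 9620 piRNAs matched piRNA genes of Ensembl release 115 on WBcel235, whose names are used; 122 did not match. Coding exons include UTRs. Libraries were compared by exact conditional binomial and chi-square tests on recovered reads (scipy 1.17.1, Python 3.11.15), checked on simulated data. No genome sequence was used, so the planned lists on the upstream motif and first base were not run. The members and lists were chosen with earlier results of these data known. Named by rule were the 10 highest piRNAs, the 5 highest off chromosome IV, 21ur-1, the highest locus of each of the 10 highest bins and both loci of the 8 steepest pairs. Other alternatives were each library alone, other bin sizes, distances, ratios, read minimums and pseudocounts, and overlapping loci left out.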

Additional observations from a re-analysis of the deposited data

How the results depend on the processing

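Of 56 alternative values for 17 results, 33 were labelled the same, meaning within the SD of the libraries or, for a count, within 1.5-fold. For the spacing and the correlation no such spread was used, and any change counted as moved. For the summed level and the shares by region and strand, a library alone lies within that SD by construction. The tally therefore says little about robustness. A minimum of 3 reads lowered the mean number of detected piRNAs to 1274.5, from 3519. With overlapping loci left out, the 100 highest piRNAs held 33.0% of the level, the cluster at 4.5 to 7 Mb 9.02%, the region from 13 Mb 90.0379% and other chromosomes 0.769%. Without the 10 highest loci the plus share of chromosome IV was 47.4%. The median spacing of 272 bases was 509 bases over loci with a read, 444 on the plus strand alone and 440 on the minus strand alone, as fewer loci imply. Leaving out the highest locus of each bin lowered the share of the top 1% of bins to 7.16%, from 9.45%. The 98 neighbouring pairs that were unequal in both libraries became 173 within 500 bases, 58 when chosen in WT replicate 2, where fewer loci reach 20 reads, and 43 without overlapping pairs. The correlation between libraries, 0.634, was 0.336 with pseudocount 0.1, 0.811 with pseudocount 5, 0.779 without the filter and 0.851 over loci averaging 10 RPM or more. Over loci with a read the median level was 0.745 RPM in coding exons, 0.920 RPM in coding introns and 0.920 RPM outside coding genes. With 1 library left out, the share of the 100 highest ranged from 28.8 to 30.2% and the median in coding introns was 0 either way. No piRNA was called as different between the libraries under any library size or read minimum tried. No paired analysis was possible because only 1 group was analysed. The alternatives on the upstream motif were not run.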
